A study of Sus scrofa with 48 samples.

Results

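Macrophages are the most numerous immune cells of white adipose tissue, where they take up dying adipocytes and the lipid these release. Their scavenger receptors bind debris and modified lipoproteins, their Fc receptors bind antibody-coated particles and signal through small adaptor proteins, and a membrane oxidase produces reactive oxygen in the phagocytic vacuole. Complement is a cascade of plasma and tissue proteins that coats particles for uptake. Its classical branch starts with the C1q recognition molecule and the proteases C1r and C1s, its alternative branch uses factor B, and both converge on C3. Adipose tissue is a known site of complement synthesis.

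The transcripts of 43 such genes, listed by their known role, were followed in subcutaneous adipose tissue (SCAT) of 48 pigs. A gene was included when the custom porcine array held a probe of its symbol whose signal stood clearly over background in at least 9 of a group's 12 pigs, and it was represented by its brightest such probe. This left 37 of the 43 members, among 11093 genes measured in the same way. CSF1, MARCO, ITGAM, ITGAX, CYBB and C3AR1 had no probe named with their symbol and were not analysed here. The probes of FCGR3A were named FCGR3B in the array files. For 18 of the 37 members, among them CD68, CSF1R, MRC1, TREM2, NCF1, NCF4, SPI1 and CORO1A, the brightest probe carried an accession that the pig RefSeq table does not hold. How well these probes match the pig transcripts was not tested.

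The pigs were Large White barrows of 132 days of age, from a pair of lines bred apart on residual feed intake (RFI), which is what a pig eats beyond its predicted need. They ate freely either a high fat, high fiber diet (HF, with plant oils and wheat straw) or a diet low in fat and rich in starch (LF). The paper reports that HF pigs ate less, ended lighter and had less fat relative to body weight. A diet difference here cannot be told apart from these. Each diet was fed to 12 low RFI and 12 high RFI pigs, with 1 array per pig, which makes 4 groups. The low and high RFI pigs were each a selection line, so that a line difference cannot be told apart from drift between the lines. Levels are log2 signals relative to the median kept probe of the same array, so that 0 is that median. They rank pigs for 1 probe but not genes against each other, since probes differ in brightness.

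The labelled tissue held its markers. All 10 adipocyte markers listed for the check, such as ADIPOQ and FABP4, were well above background on all 48 arrays. Of the 8 defining macrophage markers, 7 were also above background on all 48 arrays, and CD68 was on 45. Between 62.2% and 81.9% of the probes were well above background per array, and each of the 6 slides held 2 arrays of every group. In a whole-tissue extract, fewer cells of a type and less RNA per cell cannot be told apart.

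The probes of SPP1 carry the clearest diet difference of the set and are therefore shown first. SPP1 encodes osteopontin, a secreted phosphoprotein that macrophages around dying adipocytes make in quantity. The array held 6 probes of this name, each of 60 bases. Capitals mark the 29 bases shared by A_72_P733328 and A_72_P744403, and, in the first 30 bases of A_72_P743571 and O350, the part of a run of 46 bases that these share. The remaining probes are in lower case, and only the first 30 bases of A_72_P125426 are given.
A_72_P733328: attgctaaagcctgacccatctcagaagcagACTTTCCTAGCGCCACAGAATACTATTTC
A_72_P744403: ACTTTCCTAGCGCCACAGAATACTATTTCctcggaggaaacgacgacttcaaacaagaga
A_72_P441454: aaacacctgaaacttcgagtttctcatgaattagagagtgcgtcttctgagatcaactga
A_72_P743571: gtctttccgtTAAGAAATACAAGCCGTCAC
O350: acggtctttccgtaTAAGAAATACAAGCCG
A_72_P125426: tggtatccatgtgtactgaccctgcgccat
Probe A_72_P125426 was the brightest and stood for the gene. It shared no run of more than 8 bases with any of the others on either strand. Its accession is not held in the RefSeq table of assembly Sscrofa11.1, whereas 4 of the 6 probes carry an accession of the SPP1 transcript in that table.

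The diet contrast asked whether the HF diet changed macrophage and complement transcripts irrespective of line. At the gene level it did not move any of the 37 members past the cut-offs (raw p below 0.01, change above 1.1-fold, adjusted p below 0.08) by limma or by the analysis of variance run as an alternative, while 12.6% of all genes were called by limma (3.27% higher and 9.34% lower under the HF diet). The median log2 fold change (HF minus LF) was 0.03 over the members and -0.04 over all genes, and 23 members had a positive and 14 a negative value. A single member had a raw p under 0.05, compared with 25.9% of all genes. The 95% interval of the diet change lay within 1.5-fold in either direction for 34 of the 37 members and within 2-fold for all 37. The exceptions to the narrower limit were FCGR1A, C3 and CFB.

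**Figure D1:**
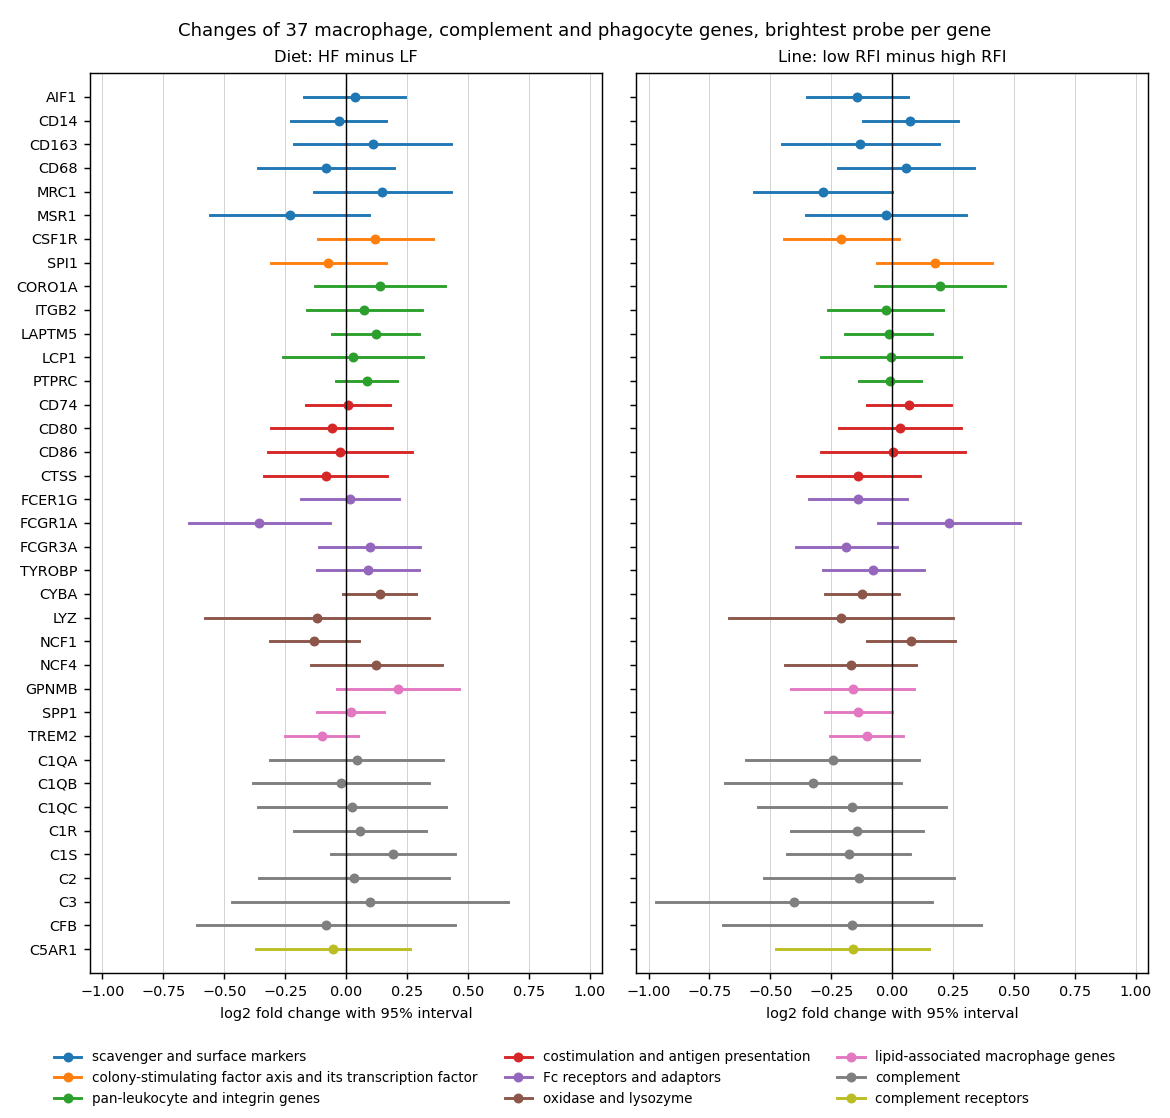
Log2 fold change (points) with 95% interval (lines) of the 37 members by diet (left, HF minus LF) and by line (right, low RFI minus high RFI), coloured by role. By diet the interval of FCGR1A alone lies off 0, at -0.65 to -0.07, and by line those of MRC1 and SPP1 end just below 0.

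FCGR1A, the high affinity receptor for IgG, had the largest diet change when each member was represented by its brightest probe. Its level in HF pigs ran from -5.86 to -2.83 with a median of -3.74 (n = 24), and in LF pigs from -4.10 to -2.23 with a median of -3.39. The ranges overlapped, HF pigs reached lower, and the lowest HF value belonged to a high RFI pig. The log2 fold change was -0.36 ± 0.14 (SE), with p = 0.0171 and adjusted p = 0.101 by limma, which did not pass. It passed under 6 of 15 alternatives that could give it a value, among them those with slide or scan date as a block (adjusted p = 0.0408 and 0.0489). Its change was -0.15 with normexp background, and ran from -0.48 to -0.14 under the 9 alternatives where it did not pass. The probe was dim. It was well above background on all LF arrays but on 11 of 12 HF low RFI and 8 of 12 HF high RFI arrays, and across pigs its level correlated with the share of probes above background on the array (r = 0.50, n = 48, group means removed). The part of this in the diet difference was not tested.

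The other Fc receptor and adaptor genes showed no such difference. FCGR3A, the low affinity IgG receptor, had a diet value of 0.10 ± 0.10. TYROBP, the adaptor DAP12 of several myeloid receptors, ran from 1.5 to 2.77 in HF pigs (median 2.30) and from 1.54 to 3.03 in LF pigs (median 2.09). Its ranges nearly coincided, with a difference of 0.09 (95% interval -0.12 to 0.30). FCER1G, the common gamma chain that these receptors share, had a value of 0.01 (-0.19 to 0.22).

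Among the scavenger and surface markers, 3 of 6 had a positive and 3 a negative diet value, and none passed. CD163, the hemoglobin scavenger receptor, had a median of 2.86 in HF pigs (1.53 to 4.12) and 2.74 in LF pigs (1.69 to 3.64). These ranges overlapped almost completely. MSR1, the class A scavenger receptor, had the smallest p of this role, with a change of -0.23 ± 0.16 (p = 0.161). Over the 17 alternatives its change ran from -0.36 to -0.11. CSF1R, the receptor of the growth factor that macrophages need, had a value of 0.12 ± 0.12.

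All 5 pan-leukocyte and integrin genes had a positive diet value, from 0.03 for LCP1 to 0.14 for CORO1A, both actin-binding proteins of leukocytes. None passed the cut-offs. The value of PTPRC turned from 0.23 within the first scan date, where it passed, to -0.06 within the second. LAPTM5, a lysosomal membrane protein of blood cells, had the smallest p of these (0.12 ± 0.09, p = 0.176). Costimulation and antigen presentation genes were close to 0, between -0.08 for CTSS, the cathepsin that trims the invariant chain, and 0.01 for CD74, that chain itself.

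Among the oxidase genes, CYBA, the small membrane subunit of the phagocyte oxidase, ran from 4.03 to 5.19 in HF pigs (median 4.87) and from 4.23 to 5.25 in LF pigs (median 4.76). The change of 0.14 ± 0.07 did not pass (adjusted p = 0.243), and a second CYBA probe gave -0.08. GPNMB, a glycoprotein of lipid-laden macrophages, ran from 0.96 to 2.98 in HF pigs (median 2.36) and from 1.31 to 3.54 in LF pigs (median 2.03). Its change was 0.21 ± 0.13 with adjusted p = 0.282. It was 0.32 within the first scan date and 0.11 within the second. With array weights CYBA, GPNMB and C1S passed (0.18, 0.32 and 0.29). TREM2, the lipid-sensing receptor of such cells, had a value of -0.10 ± 0.07.

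The complement genes varied widely between pigs but little between diets. C1QB, a chain of C1q, ran from 2.87 to 5.26 in HF pigs (median 4.12) and from 3.0 to 5.72 in LF pigs (median 4.17). The diets overlapped almost fully, with a change of -0.02 (95% interval -0.38 to 0.34). C1S had the smallest p of this role, with a change of 0.19 ± 0.13 (p = 0.135). It was 0.34 within the first scan date and 0.05 within the second, and passed in neither. C3, the central component, spread over a 41.4-fold range across the 48 arrays, the widest of the members. Its diet change was 0.10, with an interval from -0.47 to 0.66 that reached past 1.5-fold. C5AR1, the receptor of the C5a fragment, had a value of -0.05 ± 0.16.

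**Figure D2:**
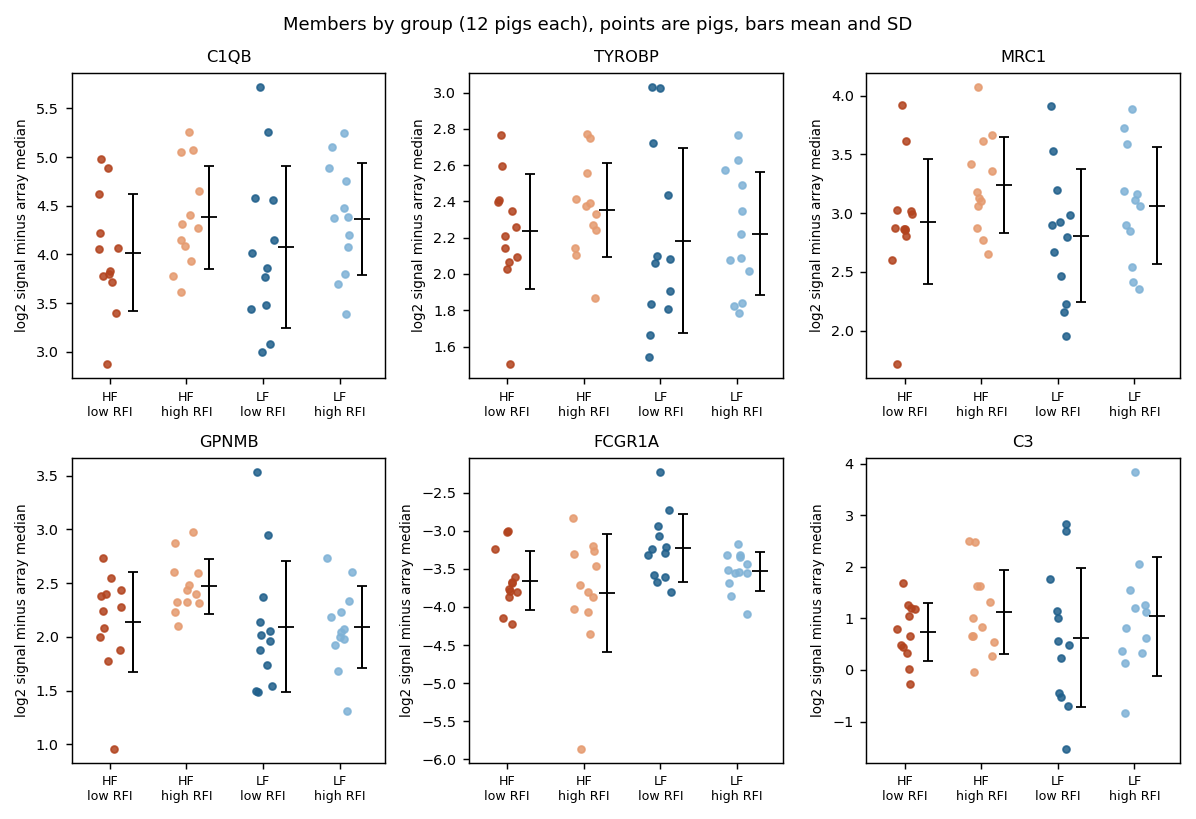
Levels of 6 members (log2 signal minus the array median) in the 4 groups, each point a pig and each bar the mean and SD of 12 pigs. The groups overlap in every panel. FCGR1A has its lowest pig, at -5.86, in HF high RFI, and C3 its highest, at 3.84, in LF high RFI.

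The brightest SPP1 probe did not differ between diets. It ran from 2.72 to 3.52 in HF pigs (median 3.32) and from 2.68 to 3.61 in LF pigs (median 3.30), a change of 0.02 (95% interval -0.12 to 0.16). The other probes gave another picture. The fit was repeated on each of the 44356 kept probes, a step added after the gene-level values had been seen, and SPP1 was singled out from its result. Of the 114 kept probes of the members, 5 were differentially expressed probes (DEP) by diet against 13.1% of all probes, and all 5 were SPP1 probes. By line none of the 114 was called, against 1.37% of all probes.

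Probe A_72_P743571 ran from -3.15 to 1.02 in HF pigs (median -0.86) and from -1.40 to 1.61 in LF pigs (median 0.00). The HF pigs lay lower, with overlap, and 22 of 24 LF pigs were above the HF mean. Its log2 fold change was -1.0 ± 0.22 (adjusted p = 0.00181 by limma over all probes), a 2.0-fold lower signal under the HF diet.

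Probe A_72_P441454 ran from -1.40 to 1.68 in HF pigs (median 0.32) and from -0.58 to 2.42 in LF pigs (median 1.13). Its change was -0.88 ± 0.21 (adjusted p = 0.00407). The overlapping probes A_72_P733328 and A_72_P744403 fell by 0.88 and 0.91 on the log2 scale, and O350 by 0.95. Their adjusted p-values were 0.0022, 0.00351 and 0.00304. A_72_P733328 and A_72_P744403 were dim, well above background on 47 and 44 arrays, and with normexp background their changes were -0.46 and -0.42, still called. Since these pairs share bases, the 5 probes are not independent measurements of the transcript.

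Between pigs of a group the 5 probes moved together, with r from 0.71 to 0.99 for each pair (n = 48, group means removed). With the brightest probe they correlated by 0.07 to 0.19 only. The diet difference of the 5 was -1.31 to -1.15 in low RFI and -0.69 to -0.54 in high RFI pigs. The interaction was not called for any of them (raw p 0.113 to 0.208). Within the first scan date (24 arrays) they changed by -1.34 to -1.09 (adjusted p 0.0199 to 0.0582), and within the second by -0.85 to -0.48 (adjusted p 0.111 to 0.374), so that none was called there. By line they were lower in low RFI pigs by -0.56 to -0.30, and none passed (adjusted p 0.239 to 0.738).

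**Figure D3:**
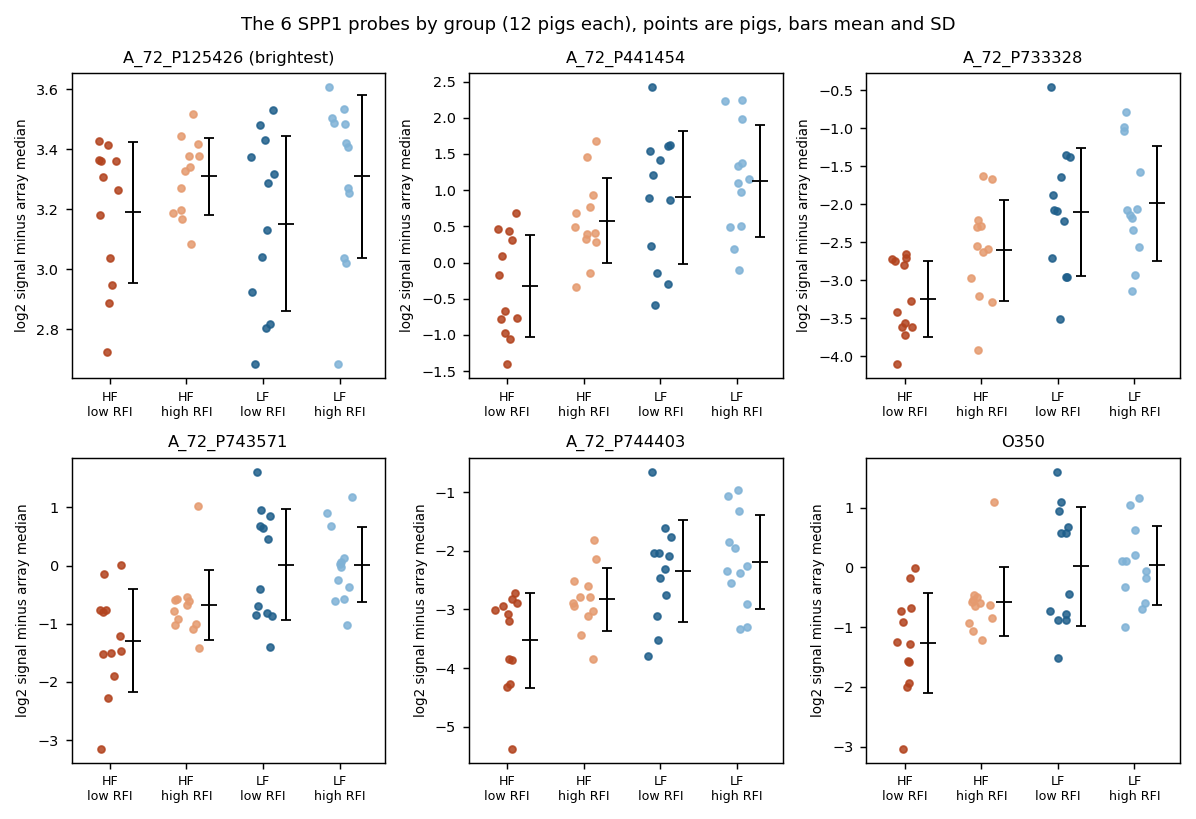
Levels of the 6 SPP1 probes (log2 signal minus the array median) by group, each point a pig and each bar the mean and SD of 12 pigs, with a separate axis per probe. HF low RFI has the lowest mean for the 5 probes other than A_72_P125426, whose diet means differ by 0.02.

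SPP1 was the member whose probes disagreed most in their diet change, so all other members were examined for the same. Of the 37, 27 had several kept probes, with 77 probes besides the brightest. Of these, 64 correlated with the brightest probe of their gene at r over 0.5 across pigs. The other 13 belonged to 8 genes, namely SPP1, PTPRC, CD80, CYBA, NCF1, GPNMB, C1QB and CFB. Apart from SPP1, no other probe of a member was called by diet or by line. The second C1QB probe (O8971) had an SD within groups of 0.17 against 0.65 for the brightest and followed it at r = 0.11. All 6 CD163 probes gave a diet change between 0.06 and 0.14, and 10 of the 11 GPNMB probes a positive one.

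The line contrast asked whether the lines selected for feed efficiency differed in these transcripts irrespective of diet. None of the 37 members passed (limma), against 1.14% of all genes (0.757% called higher in low RFI pigs, 0.388% called lower), and 2 had a raw p under 0.05, against 10.2%. The members had a median log2 fold change (low RFI minus high RFI) of -0.13, compared with 0.02 over all genes, and 28 of the 37 were lower in low RFI pigs. The list was chosen with an earlier analysis of the line contrast on these arrays known, so its direction is no independent support. Of the 8 defining macrophage markers 7 had a negative line value and 1 a positive one, and none was called. Within the first scan date 26 were lower (median -0.08) and within the second 23 (median -0.05).

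MRC1, the mannose receptor, ran from 1.72 to 3.92 in low RFI pigs (median 2.87, n = 24) and from 2.35 to 4.07 in high RFI pigs (median 3.12). The low RFI values reached lower, with the ranges overlapping over most of their width. The change was -0.28 ± 0.14 (p = 0.0485, adjusted p = 0.482). Its second probe gave -0.29. Within the first scan date the change was -0.44 and within the second -0.12. The brightest SPP1 probe differed by -0.14 ± 0.07 (adjusted p = 0.485).

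All 8 complement members were lower in low RFI pigs, between -0.13 for C2 and -0.40 for C3, and none passed. All 8 fibroblast markers also had a negative line value (median -0.10) and 8 of 10 adipocyte markers a positive one (median 0.09), with none called. Their part in the complement values was not tested. C1QB ran from 2.87 to 5.72 in low RFI (median 3.94) and from 3.39 to 5.26 in high RFI pigs (median 4.34). The highest pig of all was thus in the low RFI line although its median was lower. The change was -0.33 with a 95% interval from -0.69 to 0.03, the smallest p of this role (p = 0.0756). It was -0.51 within the first scan date, -0.14 within the second and -0.18 with the mean of both probes. FCGR3A had a line value of -0.19 ± 0.10 and CSF1R of -0.21 ± 0.12. CSF1R was at -0.40 within the first scan date and at -0.01 within the second. CORO1A and FCGR1A went the other way, at 0.20 ± 0.13 and 0.23 ± 0.14.

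The interaction asked whether the lines answered the diet differently. None of the members was called, and none had a raw p under 0.05, while 0.892% of all genes did and no gene was called (limma). The interaction intervals were wide, and 15 of 37 lay within 1.5-fold. CFB, the protease factor of the alternative branch, had the smallest p (-1.01 ± 0.53, p = 0.0605). Its second probe (O1992), well above background on 41 arrays, gave 0.06 (limma p = 0.782) and followed the brightest at r = -0.16. The brightest probe had a median of 0.69 in HF low RFI (-0.49 to 1.69), 1.11 in HF high RFI (0.44 to 3.55), 0.94 in LF low RFI (-0.21 to 3.93) and 0.77 in LF high RFI (-0.35 to 2.20). All 4 ranges overlapped, with the highest pigs in LF low RFI and HF high RFI.

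The members varied widely between pigs of a group. The SD within groups was above the median of all genes (0.27) for 33 of the 37, with a median of 0.45. It was highest for C3 (1.02), CFB (0.95) and LYZ (0.82), which encodes the antibacterial enzyme lysozyme, and lowest for PTPRC (0.22), the leukocyte phosphatase CD45.

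Part of this spread was shared between members. Over 48 arrays with the group means removed, the median correlation of the 666 pairs of members was 0.44, and 61.0% exceeded 0.3. Over all pairs of genes the median was 0.01 and 15.9% exceeded 0.3. All these pairs share the same arrays, so the values are a description. The median was 0.45 with slide means also removed, 0.42 with the array's signal before centring removed and 0.38 without the 2 pigs farthest from the middle. It was 0.59 within the first and 0.43 within the second scan date, and between 0.36 and 0.56 within the 4 groups.

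TYROBP correlated with the mean of the other members at r = 0.92, FCER1G, C1QB and CD86 at 0.88, and C1QA and C1QC at 0.87. CD86 is a costimulatory ligand of antigen presenting cells. In all, 25 members exceeded 0.6 and 10 were under 0.5. The latter were C3, CD68, SPP1, PTPRC, TREM2, CD80, FCGR1A, SPI1, CFB and NCF1. They include the 4 members that were not above background on every array, CD68 and SPI1 on 45, FCGR1A on 43 and NCF1 on 47. They also include 5 of the 8 genes with discordant probes. NCF1, the cytosolic p47 subunit of the oxidase, had the only negative value (-0.21), from a probe that its second probe A_72_P146491, with an accession in the pig table, followed at r = 0.04. The diet values of these probes were -0.13 and 0.26, and neither passed. The brightest NCF1 probe rose with the share of probes above background (r = 0.53) and SPI1, the transcription factor PU.1, fell with the array's signal before centring (r = -0.56). The 25 members over 0.6 all rose with that signal, from r = 0.06 for CD14 to 0.60 for CTSS. What part array signal had in the low or the high values was not tested.

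**Figure D4:**
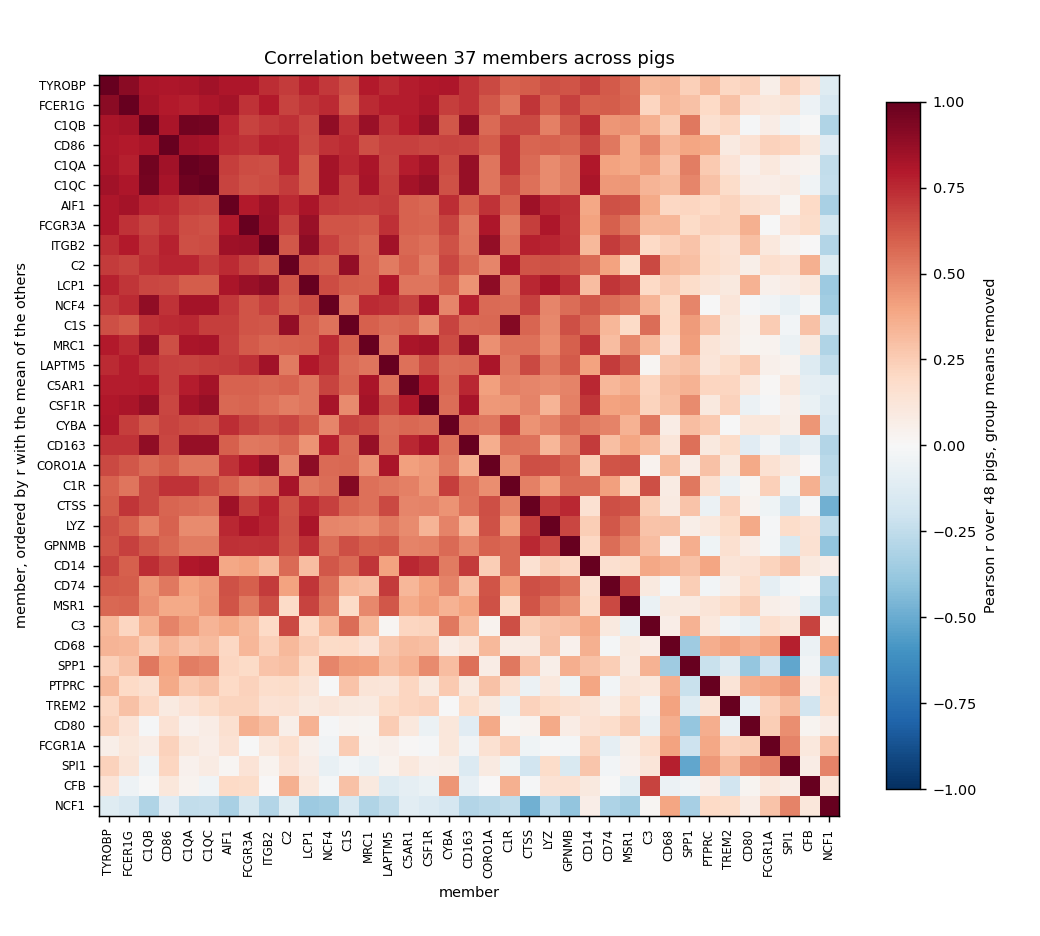
Pearson r between the 37 members across 48 pigs with the group means removed, members ordered by their r with the mean of the other members. The 25 genes from TYROBP to CD14 have r of 0.92 to 0.67 with that mean, and single pairs among them can be lower, such as CD14 and CTSS at 0.15. NCF1 in the last row is negative with most of these genes.

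Known partners were compared in pairs. Of 12 pairs set by function, 8 could be computed, and 7 passed after Benjamini-Hochberg adjustment (two-sided permutation test, 100000 resamples within groups, adjusted p under 0.05). The closest were the chains of C1q. C1QA and C1QB correlated at r = 0.96 (rho = 0.96) and C1QA and C1QC at r = 0.98 (rho = 0.98), with p = 1e-05, the smallest the permutations can give, and adjusted p = 1.6e-05. Without the 2 pigs farthest in C1QA the values were 0.95 and 0.97. These 3 genes are neighbours in the reference table, as are C1R and C1S.

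C1R and C1S, the proteases of the C1 complex, correlated at r = 0.92 (rho = 0.86), and FCER1G and TYROBP at r = 0.90 (rho = 0.86). CD163 and MRC1, both markers of resident macrophages, correlated at r = 0.87 (rho = 0.83). For these pairs the permutation p was also 1e-05 (adjusted 1.6e-05). Without the 2 farthest pigs r was 0.88, 0.87 and 0.84. Within scan dates it lay between 0.83 and 0.96 for them.

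The remaining pairs were weaker. CD68 and PTPRC correlated at r = 0.37 (rho = 0.36, permutation p = 0.0117 and 0.0148, adjusted p = 0.0156 and 0.0197) and at 0.39 without the 2 farthest pigs, but at 0.10 with slide means removed and at 0.11 and 0.08 within the scan dates, so the relation did not hold within batches. NCF1 and NCF4, cytosolic partners of the oxidase, had r = -0.35 (permutation p = 0.0175, adjusted p = 0.02) and rho = -0.25 (p = 0.0872, adjusted p = 0.0996). It was -0.18 without the 2 farthest pigs, -0.33 with slide means removed, -0.56 within the first scan date and -0.05 within the second, so that it did not hold in both dates. With the mean of all probes of each gene it was 0.29. TREM2 and its adaptor TYROBP had r = 0.21 (rho = 0.21, permutation p = 0.194 and 0.173, adjusted p the same), or 0.16 without the 2 farthest pigs, and did not pass.

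C2 and CFB, neighbours in the reference table and paralogous proteases, correlated at r = 0.36, while C3 correlated with CFB at 0.67, with C2 at 0.66 and with C1R at 0.65. C2 followed the mean of the members at 0.81 and CFB at 0.12.

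Other genes of these pathways gave the members a frame. Of 48 measured among 66 other macrophage and myeloid genes, none was called higher and 4 lower under the HF diet, with a list median of -0.02. Over all genes 3.27% were called higher and 9.34% lower, so that the count of lower genes was near the background. CTSD, a lysosomal aspartic protease, had a median of 5.10 in HF pigs (4.66 to 5.34) and 5.35 in LF pigs (4.69 to 5.68). HF pigs were lower with overlap, by -0.29 ± 0.06 (adjusted p = 0.000694), and its 3 probes were all called. LIPA, the lysosomal acid lipase that frees the fatty acids of ingested lipid, had a median of 5.71 in HF pigs (5.25 to 6.18) and 5.98 in LF pigs (5.46 to 6.36). It changed by -0.28 ± 0.07 (adjusted p = 0.0036), and 3 of 4 probes were called.

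FOLR2, the folate receptor of resident macrophages, had a median of 2.63 in HF pigs (2.21 to 3.14) and 2.92 in LF pigs (2.41 to 3.14). The change was -0.25 ± 0.06 (adjusted p = 0.0051), but its second probe changed by -0.02 and was not called. CTSB, a lysosomal cysteine protease, changed by -0.15 ± 0.05 (adjusted p = 0.0577), with 1 of 7 probes called. CTSD, LIPA and CTSB are made by many cell types, adipocytes included. By line none of the 48 was called.

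Of 20 measured among 28 other complement genes, 1 was called higher and 1 lower by diet, also near that background, and none by line. C4A, the C4 component cleaved by C1s, had a median of 4.80 in HF pigs (3.99 to 5.54) and 4.07 in LF pigs (3.34 to 5.62). HF pigs were higher with overlap, by 0.67 ± 0.13 (adjusted p = 0.000773), and its 3 probes were all called. CD59, the membrane inhibitor of the last complement step, had a median of 5.64 in HF pigs (5.15 to 6.05) and 5.87 in LF pigs (5.50 to 6.21). The difference of -0.25 ± 0.06 passed (adjusted p = 0.00445), again in all 3 probes.

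**Figure D5:**
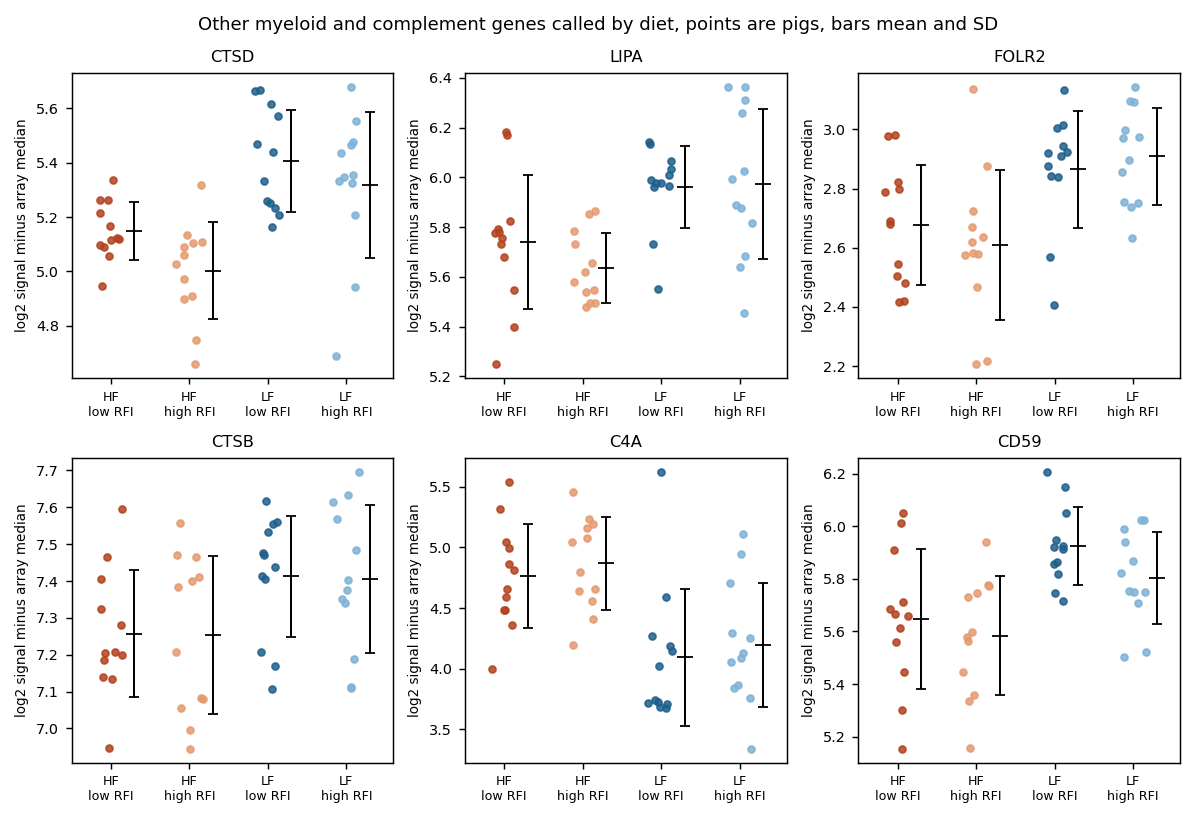
Levels of the 6 other myeloid and complement genes called by diet (log2 signal minus the array median) in the 4 groups, each point a pig and each bar the mean and SD of 12 pigs. CTSD, LIPA, FOLR2, CTSB and CD59 are lower and C4A is higher under the HF diet, with overlap between the groups.

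Markers of other cell types were set beside the members. By diet, 3 of 10 adipocyte markers were called lower (ADIPOR2 at -0.20, LEP at -0.67 and CIDEA at -0.36). Of the 10, 7 had a negative and 3 a positive diet value. Among fibroblast markers 2 of 8 were called higher (COL1A2 at 0.36 and PDGFRA at 0.31). Over all genes 9.34% were called lower and 3.27% higher. All 8 fibroblast markers had a positive diet value (median 0.18) and all 7 skeletal muscle markers a negative one (median -0.22). Over all genes 4184 values were positive and 6909 negative. The part of these markers in the values of C4A and C1S was not tested. Of 11 T and NK cell markers 1 was lower (CD247, -0.20), and of 7 neutrophil markers 1 (CXCR2, -0.25). With 1 call each, these short lists are near the share of lower genes. None of 6 B and plasma cell, 4 mast cell, 2 dendritic cell, 7 endothelial, 7 skeletal muscle or 3 blood cell markers was called, and by line none of any list. The mean log2 level of the 8 defining macrophage markers per array had group medians between 1.49 and 1.79 and ran from 0.86 to 2.61 over the pigs. That of the adipocyte markers had group medians between 7.68 and 7.92.

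Across pigs, with group means removed and n = 48, the mean of the members rose with that of the other myeloid genes (r = 0.91, rho = 0.91), of T and NK cell markers (r = 0.67, rho = 0.63), of other complement genes (r = 0.59, rho = 0.56) and of the 2 dendritic cell markers (r = 0.50, rho = 0.45). With the fibroblast markers the values were r = 0.25 and rho = 0.16. It fell as that of the adipocyte markers rose (r = -0.44, rho = -0.33). With neutrophil markers they were r = -0.18 and rho = -0.28, with B and plasma cell markers 0.11 and 0.15, and with endothelial markers -0.13 and -0.12. Mast cell, skeletal muscle and blood cell markers had r between 0.04 and 0.14. The array's signal before centring rose with it (r = 0.33) and the share of probes above background did not (r = -0.06). These are descriptions over the same arrays, and the part of cell makeup or signal in them was not tested.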

How the data were processed

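The authors labelled RNA of each pig with 1 dye and scanned the arrays with Agilent Feature Extraction 10.7.3.1, per the file headers. The deposited scanner files hold spot intensities on a linear scale, and the background-subtracted processed signal was used. The authors' table of log2 values (made with R 2.10.0, per the submitters' processing notes) holds median intensities centred per array without background subtraction and served as an alternative. It matched the scanner files within 4.87e-09. Centring removed a signal difference between arrays (mean log2 8.44 in HF and 8.33 in LF pigs). The dim probe of FCGR1A and the dim SPP1 probes gave smaller changes with normexp background than in the main fit. Arrays give no read depth, and 12 pigs a group limit the precision.

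Control spots, and 227 spots flagged as non-uniform or outliers, were left out. Probes well above background on at least 9 of 12 arrays of a group were kept (44356), and log2 signals were centred on the array median. Diet, line and interaction were fitted in limma 3.58.1 (R 4.3.3, eBayes with trend, two-sided). Calls met 3 cut-offs together, namely raw p below 0.01, change above 1.1-fold and, over all genes or probes, Benjamini-Hochberg p below 0.08. Genes were named through the Sscrofa11.1 RefSeq table and the array's names. All probes were listed as unmapped, so no positions are given. The members, roles and lists were chosen with earlier results of these data known. The named genes were called members, the member with the smallest p per role and contrast, the pairs, and at most 5 called genes of each other list. Alternatives changed the scaling, background, filter, probe summary, blocks, arrays or test, 1 at a time.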

Additional observations from a re-analysis of the deposited data

How the results depend on the processing

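No member was called by line or by interaction under any of the 17 alternatives. By diet the count of called members stayed 0 under 9 of them. It was 1 with quantile normalization, with normexp background, with slide, scan date or replicate number as a block (FCGR1A each time, at -0.37, -0.15 and -0.36), with the mean of all probes (SPP1, which turned from 0.02 to -0.77, adjusted p = 0.00201) and in the first scan date alone (PTPRC, 0.23, which turned to -0.06 in the second). With array weights it was 4 (C1S 0.29, CYBA 0.18, FCGR1A -0.40 and GPNMB 0.32). Among all genes the called share ran from 2.36% to 18.5%. The labels give replicate numbers no shared origin. Same-numbered arrays correlated at a median of 0.17 (-0.03 for other numbers, 0.06 for other numbers of the same slide), 45 of 72 pairs exceeded 0.1, and 18 of 48 arrays correlated best with their own number, a hint of pairing from the data that did not hold for every pair. The number of SPP1 probes called was 5 under 14 of 16 alternatives, 3 of 4 where probes had to be above background on all arrays, and 0 in the second scan date alone. Of the 8 pairs, 5 to 7 passed under the 10 alternatives. NCF1 and NCF4 turned to r = 0.29 with the mean of all probes. The causes were not tested. Signal over background limits FCGR1A, NCF1, SPI1, CD68 and the SPP1 probes A_72_P733328 and A_72_P744403, which were dim.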
